A study of Mus musculus with 8 samples.

Results

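The interferon regulatory factors and their IRF2-binding proteins were followed in the RNA-seq libraries of Th17 cells with and without TRIM28, a cofactor of transcription best known as a co-repressor. The 10 genes were taken by symbol (*Irf1*, *Irf2*, *Irf3*, *Irf4*, *Irf5*, *Irf7*, *Irf8*, *Irf9*, *Irf2bp1* and *Irf2bp2*), and all 10 had reads in both libraries, out of 13704 genes with reads. Naive CD4+ T cells of C57BL/6 mice were made into Th17 cells in 3 days of culture. The medium held TGF-β at 0.5 ng/ml and IL-6 at 20 ng/ml, and per the study's methods anti-CD3 was given again before RNA extraction. The WT library came from wild type cells and the KO library from TRIM28fl/flxCD4cre cells, in which Cre under the *Cd4* promoter removes loxP-flanked *Trim28* in T cells. Whether the WT mice carried Cre or floxed alleles, the age of the mice used here and how many were pooled are not given in the sources used here. There was 1 library per genotype, which leaves every difference without a replicate check. Genotype and culture cannot be told apart, nor can fewer cells that express a gene and less RNA per cell.

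The libraries held 6.65 M (WT) and 6.19 M (KO) assigned reads, where 1 M is 1000000 reads. Levels are given as CPM, reads per 1 M assigned reads, and the floor for showing a level, 3 reads, is 0.451 and 0.485 CPM. *Trim28* itself had 4485 reads in WT and 180 in KO, and pairs of values below are in that order. All 10 T-cell markers examined had reads. *Cd4* (7904 and 6598) and *Cd5* (7943 and 6186) had the most over both libraries, followed by *Cd28* (8897 and 5191), the marker with the lowest log2 fold change (-0.67, not called). The 7 B-cell markers summed to 94 and 47 reads (14.1 and 7.60 CPM), with *Cd79a* at 20 and 8 reads and *Cd22* listed in neither. The 12 myeloid and dendritic markers summed to 25 and 32 reads (3.76 and 5.17 CPM). *Xcr1* (13 and 14) and *Flt3* (11 and 4) had the most over both libraries. *Zbtb46* had 0 and 7 reads, *Itgax* 0 and 4, *Cd14* 0 and 2 and *Itgam* 1 and 1, and *Lyz2*, *Csf1r*, *Fcgr1*, *Adgre1*, *Mpo* and *Siglech* were listed in neither library. Of 5 CD8 and NK markers, *Klrd1* (58 and 70) and *Cd8b1* (52 and 27) had the most reads. The 8 Th17 markers summed to 16879 and 3734 reads, with *Maf* (6699 and 1431) and *Il21* (3537 and 1233) the highest. By the rule given below, 6 of these markers were called lower, beside 5.53% of all tested genes. The markers were chosen with earlier results of these data known.

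Interferon regulatory factors share a DNA-binding domain with a row of conserved tryptophans, which reads GAAA-type sequences such as the interferon-stimulated response element (ISRE). IRF3 and IRF7 turn virus sensing into type I interferon transcription, and IRF9 joins STAT proteins to carry the interferon signal to its target genes. IRF1 activates and IRF2 mostly represses such targets, while IRF4 and IRF8 act in lymphoid and myeloid cells and need partners such as the BATF–JUN dimer or PU.1. T-cell receptor signals induce *Irf4*, and IRF4 with BATF is required for Th17 differentiation. IRF2BP1 and IRF2BP2 are zinc finger and RING finger proteins that were found as corepressors binding IRF2.

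Promoter stretches are shown for the members whose searched window held letters looked for here. Interferon-activated factors and NF-κB, known inducers of the family, can read such letters. Windows from 250 bases before to 50 after an annotated RefSeq start (GRCm38.p6) were available for all 10 members, 13 windows in all. The *Irf5* window, chr6:29526375-29526674, lies inside the gene, whose start is at 29526130. The bases before that start were not searched. The *Irf7* window, chr7:141266375-141266674, covers only part of the 250 bases before that gene's start at 141266499 on the minus strand. Both strands were searched for the ISRE letters (GAAA, a pair of any bases, GAAA again), the STAT site (GAS) TTCNNNGAA and a narrow form of the NF-κB site, GGGANTTCC. Other forms of these sites were not searched, so a window without a match may still hold such a site. The GAS letters were found in 4 members, beside 8.30% of 32851 windows of that length, and ISRE and NF-κB letters in *Irf2* only, beside 3.44% and 1.68%. Matches are in capitals, each stretch is the plus strand of GRCm38, and none overlaps another match.
*Irf1*, chr11:53769909-53769947: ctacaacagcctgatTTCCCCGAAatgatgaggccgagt
*Irf2*, chr8:46739495-46739544: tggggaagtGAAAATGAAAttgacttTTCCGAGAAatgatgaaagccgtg
*Irf2*, chr8:46739714-46739744: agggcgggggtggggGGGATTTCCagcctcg
*Irf8*, chr8:120736172-120736228: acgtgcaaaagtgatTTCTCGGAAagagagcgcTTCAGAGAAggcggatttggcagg
*Irf2bp1*, chr7:19003984-19004022: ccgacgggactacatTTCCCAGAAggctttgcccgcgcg

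*Irf1* holds a single GAS match 90 bases before its start, *Irf2* an ISRE and a GAS match close together, and *Irf8* a pair of GAS matches. The window of *Irf4* held none of the 3 sets of letters, nor did those of *Irf3*, *Irf5*, *Irf7*, *Irf9* and *Irf2bp2*. A match is a description of letters and not evidence of binding.

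By the length of its longest transcript, *Irf4* was by far the most abundant member in each library. Levels were compared between genes as RPKM, reads per kilobase of the longest annotated transcript per 1 M reads, with exact Poisson 95% intervals. Without molecular identifiers, reads are not independent molecules, and all intervals given here reflect counting error alone. *Irf4* (chromosome 13 of GRCm38 from 30749233 to 30766981, 9 exons) stood at 320.2 RPKM in the WT library (interval from 314.0 to 326.5) and 177.2 in the KO library (172.4 to 182.1). By reads it was gene number 68 of the WT library and 151 of the KO library.

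*Irf2* and *Irf2bp2* formed the next level, at 68.5 and 64.0 RPKM in the WT library, where their intervals overlapped, and at 52.2 and 45.2 in the KO library, where they did not. *Irf2bp1* and *Irf8* followed at 26.3 and 23.8 RPKM in the WT library, with overlapping intervals, and at 33.5 and 27.6 in the KO library. *Irf3* stood at 3.41 RPKM in WT and 3.34 in KO.

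*Irf1*, *Irf5*, *Irf7* and *Irf9* lay below 0.70 RPKM in both libraries, and the intervals of neighbours in this lowest group overlapped in each library. *Irf4* led, and the 4 lowest genes stayed the lowest, with the union of exons as the length, whereas *Irf2*, whose annotated transcripts have a median length of 566 bases, moved ahead of *Irf4* (480.1 against 320.4 RPKM in the WT library) with the median transcript length. The number of mRNA models of a gene moves with these levels. The deposited values count uniquely assigned reads, and genes with 1, 2 and 3 or more curated RefSeq mRNA models had median WT levels of 8.30, 3.19 and 1.95 RPKM. *Irf1*, *Irf5*, *Irf7* and *Irf9* have 3 such models each, *Irf4* and *Irf8* have 2, and the other members have 1. The part of this in their low levels was not tested, and a low level here does not show that these genes were silent.

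**Figure D1:**
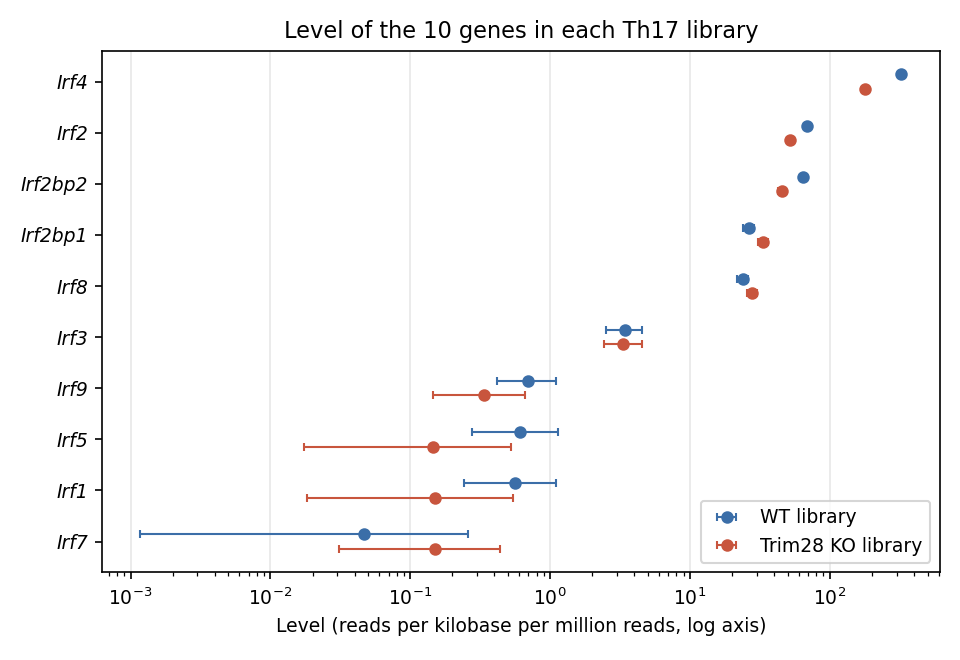
Level of each of the 10 genes (horizontal log axis, RPKM) in the WT library (blue) and the KO library (red), with exact Poisson 95% intervals that cover counting error only. *Irf4* stands apart at 320.2 and 177.2 RPKM, and *Irf1*, *Irf5*, *Irf7* and *Irf9* lie below 0.70 with wide intervals.

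*Irf4* also made up most of the reads of the 8 DNA-binding factors, 80.6% in the WT library (exact 95% interval from 79.9% to 81.3%) and 73.0% in the KO library (72.0% to 74.1%). *Irf2* held 14.4% and 17.9%, and *Irf8* 4.36% (4.01% to 4.73%) and 8.28% (7.65% to 8.94%). The shares sum to 100% and are not independent. The *Irf2* share was higher in KO although its level was lower, at 271.7 and 206.9 CPM. *Irf1*, *Irf3*, *Irf5*, *Irf7* and *Irf9* each held less than 0.6%.

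**Figure D2:**
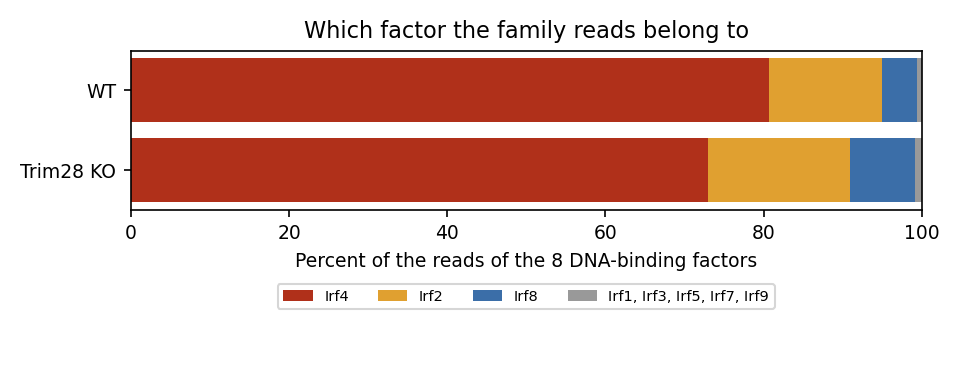
Percent of the reads of the 8 DNA-binding factors (horizontal axis) that belonged to *Irf4*, *Irf2*, *Irf8* and the other 5 in the WT and the KO library. The *Irf4* part is 80.6% in WT and 73.0% in KO, and the *Irf8* part is 4.36% and 8.28%.

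The comparison of KO with WT asks which members differed without TRIM28, as far as 1 library each can show. Log2 fold changes (log2FC, KO over WT) were taken after scaling to library totals, with 0.5 added to each count, and their exact (Clopper-Pearson) 95% confidence intervals (CI) come from the KO share of a gene's reads. A gene was called if it differed 2-fold or more with an adjusted p under 0.05. The p came from a two-sided exact binomial test of reads, adjusted by Benjamini-Hochberg over 10881 genes, and it compares the libraries and not the genotypes. Of the 10 members, 9 had the 10 reads needed for the test and none was called lower or higher, beside 5.53% of all tested genes called lower and 2.57% called higher. In edgeR with an assumed variation between cultures the count was also 0, which is no separate check, since added variation can only take calls away. The interval lay below 0 for 3 members and above 0 for 2, beside 25.0% and 23.5% of all tested genes, and both counts are near that background. For these 5 members the Benjamini-Hochberg adjusted p (exact binomial test) ran from 6.80e-275 (*Irf4*) to 0.0314 (*Irf8*), and for the other 4 from 0.129 to 1. The median log2FC of the 9 was -0.50, against -0.02 for all tested genes. *Irf1* and *Irf5* passed the filter with fewer than 10 reads in either library, most of them in the WT library, and over the 6 members with at least 10 reads in each library the median was -0.21.

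*Irf4*, which T cells switch on with the strength of the receptor signal, had 10145 reads in WT and 5222 in KO, or 1526 and 844.3 CPM. The KO level was lower, at 0.553 of the WT level. The log2FC of -0.85 (95% CI -0.90 to -0.81) was past counting error and short of 2-fold. Among the 2887 tested genes that reached 1000 reads in sum, 78 (2.70%) had a lower log2FC, and among all tested genes 1163 (10.7%) did. Both ranks use values without a length correction. Across all tested genes the log2FC was lower for longer transcripts (Spearman's rho -0.37 over 10793 genes, a description since genes are not replicates). The longest *Irf4* transcript has 4764 bases, against a median of 3318, and with a loess curve on length taken off its log2FC was -0.67 (95% CI -0.72 to -0.62).

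*Irf8*, the closest relative of *Irf4*, a lineage factor of dendritic and B cells and the gene with a pair of GAS matches, lies on chromosome 8 from 120736358 to 120756694. It had 549 reads in WT and 592 in KO, 82.6 and 95.7 CPM. The KO library was slightly higher, with a log2FC of 0.21 (95% CI 0.04 to 0.38) and 0.24 after the length correction. The summed B-cell markers went the other way, 14.1 and 7.60 CPM, and the summed myeloid and dendritic markers, 3.76 and 5.17 CPM, lay far below *Irf8* in both libraries. Of the latter, *Zbtb46* (0 and 7 reads), *Itgax* (0 and 4) and *Cd14* (0 and 2) had reads in KO and none in WT. *Flt3* went the other way (11 and 4), and *Xcr1* (13 and 14) and *Itgam* (1 and 1) were nearly level. The part of such cells in the *Irf8* level was not tested.

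The ratio of reads of one gene to another within a library does not depend on how libraries are scaled, and 6 such ratios were computed for pairs chosen after the values were known. There were 18.5 *Irf4* reads per *Irf8* read in WT and 8.82 in KO, a log2 ratio of ratios of -1.07 (exact conditional 95% interval from -1.24 to -0.89). Per *Irf2* read there were 5.61 and 4.08 *Irf4* reads (-0.46, from -0.58 to -0.35), and per *Irf8* read 3.29 and 2.16 *Irf2* reads (-0.61, from -0.81 to -0.41). The libraries thus differed in the mix of *Irf4*, *Irf2* and *Irf8* by more than counting error. Per read of *Batf*, the partner of IRF4 at AP-1 composite sites (499 and 784 reads), there were 20.3 *Irf4* reads in WT and 6.66 in KO (-1.61, from -1.78 to -1.44). These ratios are not corrected for transcript length, which is 4764 bases for *Irf4* and 955 for *Batf*. With that correction the log2FC of *Irf4* went from -0.85 to -0.67 and that of *Batf* from 0.76 to 0.47.

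*Irf2*, the constitutive antagonist of IRF1, covers chromosome 8 from 46739745 to 46847458. Its promoter window holds the letters of all 3 motifs, as shown above. It had 1807 and 1280 reads (271.7 and 206.9 CPM), a lower level in KO past counting error, with a log2FC of -0.39 (95% CI -0.50 to -0.29). After the length correction it was -0.32.

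The genes of the IRF2-binding proteins did not move together. *Irf2bp2*, on chromosome 8 from 126588296 to 126593986 with 2 exons, had 2163 and 1420 reads (325.3 and 229.6 CPM) and a log2FC of -0.50 (95% CI -0.60 to -0.41). *Irf2bp1*, a gene of 1 exon on chromosome 7 from 19004058 to 19006763, had 479 and 566 reads (72.0 and 91.5 CPM) and a log2FC of 0.35 (95% CI 0.17 to 0.52). The number of *Irf2bp2* reads per *Irf2bp1* read was 4.52 in WT and 2.51 in KO, a log2 ratio of ratios of -0.85 (95% CI -1.05 to -0.64). The *Irf2bp2* transcript is the longest of the family with 5080 bases and that of *Irf2bp1* has 2734, and the length correction brought their log2FC values to -0.28 and 0.27, with the same signs.

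*Irf3*, the gene of a latent factor that acts downstream of virus sensing, had 46 and 42 reads (6.92 and 6.79 CPM) and a log2FC of -0.03. Its interval, from -0.67 to 0.61, leaves room for a change of either sign. *Irf9*, the DNA-binding subunit of the interferon-activated complex ISGF3, had 18 and 8 reads, and a log2FC of -1.02 with an interval from -2.48 to 0.21.

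*Irf1*, the interferon-γ-induced activator, had 8 reads in WT and 2 in KO, and its log2FC of -1.66 had an interval from -5.17 to 0.43. *Irf5*, which acts downstream of Toll-like receptors, had 9 and 2 reads, with a value of -1.82 and an interval from -5.31 to 0.21. *Irf5* shares 251 exon bases with *Tnpo3* on the opposite strand (1235 and 1139 reads), and without a stated strand setting reads from that stretch cannot be told apart. *Irf7*, the amplifier of type I interferon, had 1 and 3 reads, at or under that floor of 3 reads in both libraries, so that no fold is given. For these 4 lowest genes a difference between the libraries was not detectable at this depth.

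*Irf2bpl*, a paralog of the IRF2-binding protein genes that was not on the list, had 1180 and 957 reads and a log2FC of -0.20 (95% CI -0.32 to -0.07), and after the length correction its interval included 0. It had 0.546 reads per *Irf2bp2* read in WT and 0.674 in KO (log2 ratio of ratios 0.30, from 0.15 to 0.46).

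**Figure D3:**
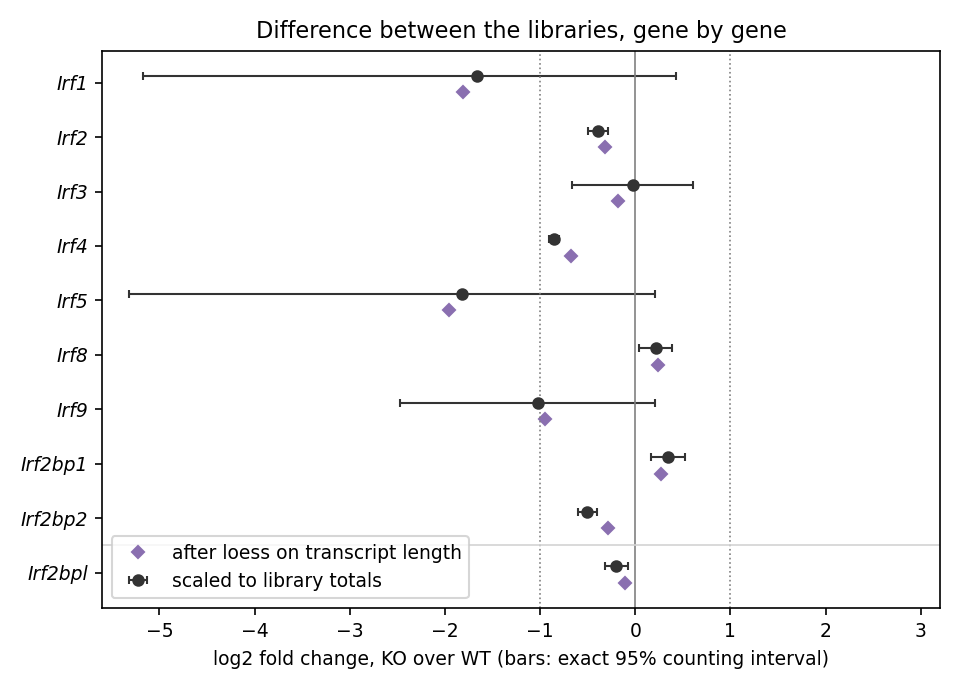
Log2FC (KO over WT, horizontal axis) of 9 of the 10 genes and, below the line, of *Irf2bpl*, with exact 95% counting intervals (black) and the value after the length correction (purple diamonds). Dotted lines mark 2-fold. *Irf4*, *Irf2* and *Irf2bp2* have intervals below 0, *Irf8* and *Irf2bp1* above 0, and *Irf7* is left out because it had 1 and 3 reads.

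**Figure D4:**
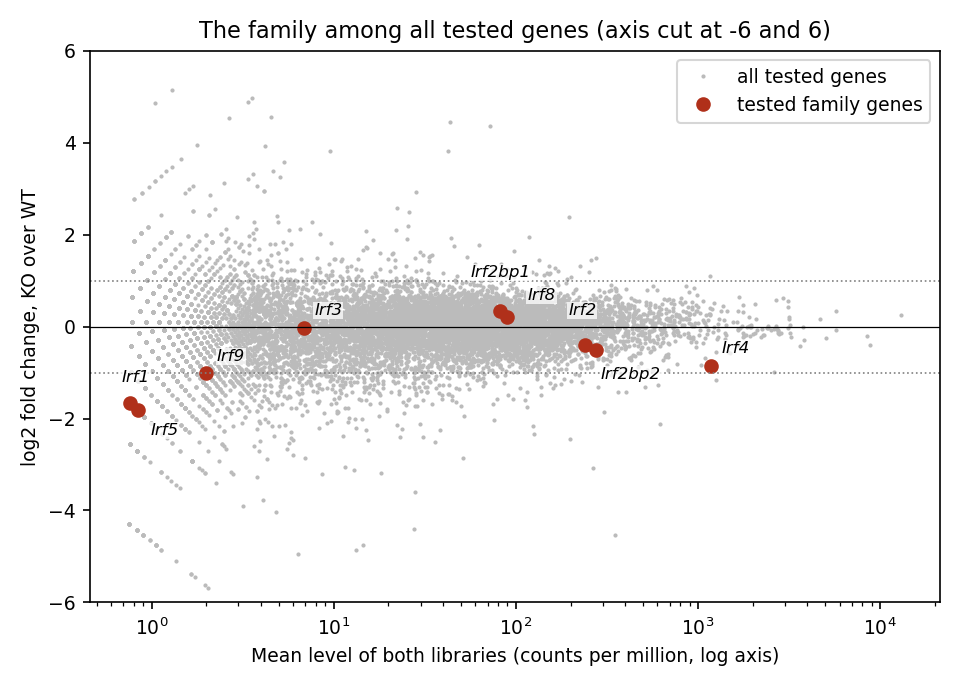
Log2FC against the mean level of both libraries (CPM, log axis) for the 10881 tested genes (grey) and the 9 tested family genes (red), with 2-fold as dotted lines. *Irf4* lies low among the highly expressed genes at -0.85, and *Irf1* and *Irf5* sit among the genes with the fewest reads.

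The surrounding pathway was read from 7 lists with 145 genes outside the family, of which 105 were tested, 13 were called lower and 2 higher (9 and 2 after the length correction), and the median log2FC was -0.07. Over all tested genes 5.53% were called lower and 2.57% higher, which is the background for each list below. Of 19 genes that bind IRF4 or regulate it, 15 were tested, 3 were called lower and none higher. *Nfatc2*, a calcium-regulated factor of the receptor response, fell from 88 to 32 reads (log2FC -1.34, 95% CI -1.99 to -0.76). *Rel*, the NF-κB subunit that induces *Irf4* in lymphocytes, fell from 193 to 85 (-1.07), and *Spib*, an ETS partner of IRF4 in B cells, from 29 to 12 (-1.13). After the length correction *Nfatc2* and *Rel* came to -0.99 and -0.69, and 1 of the 3 calls held. *Batf* had a log2FC of 0.76 and *Junb*, the gene of another AP-1 partner with 6920 and 6907 reads, one of 0.10. After the length correction *Batf* stood at 0.47, and *Junb* turned to -0.08. *Bach2* (4049 and 2044 reads) and *Ikzf3* (2338 and 1661) had values of -0.88 and -0.39, past counting error and not called, and of -0.44 and -0.23 after the correction. The median of the list was -0.05.

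Of 18 T-cell genes linked to IRF4, a list that shares genes with the Th17 markers, 16 were tested and 7 called lower, with none higher and a median of -0.70. The share of all tested genes called lower was 5.53%, but the list was chosen with earlier results of these data known. Its calls include the 6 Th17 markers called lower, so these lists are not separate. A part of IRF4 in these differences was not tested. *Il17f* (3143 and 345 reads) and *Il17a* (2226 and 381), the signature cytokines, had log2FC values of -3.08 and -2.44, and *Rora*, a Th17 nuclear receptor, one of -2.40 (258 and 45). Among the other calls, *Maf*, a transcription factor of IL-10 and IL-21 production, stood at -2.12, *Il21* at -1.42 and *Ahr*, the aryl hydrocarbon receptor, at -2.03 (816 and 185). All 7 calls held after the length correction. *Il10* had 26 and 0 reads. Against the floor of 3 reads in KO it was 8.06-fold lower, a ratio that leaves out the counting error of the 26 reads, and its exact 95% interval for the log2FC lay below -2.61. *Tcf7*, a factor of less differentiated T cells that had the most reads of this list (9975 and 6363), stood at -0.54 and was not called.

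Of 20 sensors, adaptors and kinases that lead to IRF3, IRF5 and IRF7, 15 were tested and 1 was called lower, *Tlr9*, on 12 and 2 reads, with a median of -0.24. *Tmem173*, the gene of STING, had 2662 and 2964 reads (0.26). *Ikbke*, a kinase of IRF3 and IRF7, had 1520 and 960 (-0.56), and *Traf6* 1137 and 733 (-0.53). The length correction brought these 3 to 0.13, -0.27 and -0.22. None of the 10 interferon genes examined, *Ifng*, *Ifnb1*, *Ifna1*, *Ifna2* and *Ifna4* among them, was listed in either library. An unlisted gene is not shown to be silent, since *Jund*, *Nfatc1* and *Rnf213*, which T cells commonly express, were also listed in neither, and *Irak1* had 2 and 1 reads.

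All 13 genes of interferon receptors, JAK and STAT proteins and their inhibitors were tested, 1 was called lower and 1 higher, and the median was 0.02. The lower call was lost after the length correction. *Usp18*, an inhibitor of the type I interferon receptor and itself an interferon target, rose from 8 to 111 reads, a log2FC of 3.82 (95% CI 2.87 to 5.15). *Jak1* (3221 and 2506 reads), *Ifngr1* (1885 and 2332) and *Socs3* (1866 and 1650) had values of -0.26, 0.41 and -0.07, and of -0.06, 0.26 and -0.17 after the correction.

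Of 35 targets of type I interferon, 21 were tested and the median was 0.00, with 1 called in each direction. *Ifit1*, an antiviral RNA-binding protein, rose from 4 to 16 reads (1.98, 95% CI 0.47 to 4.14), and *Adar*, an RNA editor, fell from 26 to 10 (-1.23, and -0.94 without a call after the length correction). Each of these calls rested on fewer than 30 reads in a library, and *Ifit1* has near copies between which reads could be split. *Sp100* (1179 and 1009 reads), *Dtx3l* (1153 and 732) and *Trim25* (826 and 637) had the most reads, with values of -0.12, -0.55 and -0.27, and of -0.06, -0.31 and 0.00 after the length correction. *Rtp4*, named after its values were seen, had 0 and 9 reads, 3.23-fold higher against the floor of 3 reads in WT. Its exact 95% interval for the log2FC lay above 1.09, and it was below the 10 reads needed for the test.

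Of 30 targets of interferon-γ, 25 were tested and none was called, with a median of 0.10. The interval lay above 0 for 9 and below 0 for 4, beside 23.5% and 25.0% of all tested genes. *H2-K1* (5027 and 6803 reads) and *H2-D1* (4589 and 6204), class I molecules that present antigen, both had 0.54, and *Gbp2*, a guanylate-binding protein, 0.16 (5399 and 5606). After the length correction these were 0.37, 0.39 and 0.06. Class I genes and *Gbp* genes are close in sequence, so the split of their reads is uncertain.

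**Figure D5:**
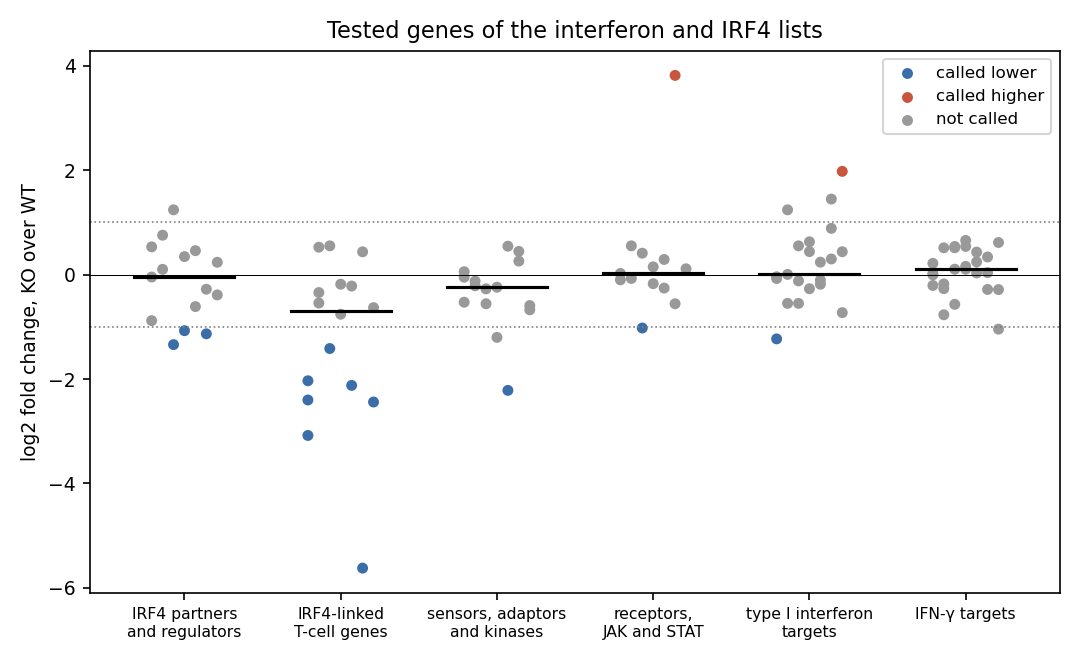
Log2FC (KO over WT, vertical axis) of each tested gene of 6 lists, with the list median as a black bar, 2-fold as dotted lines, genes called lower in blue and called higher in red. The T-cell genes linked to IRF4 hold 7 of the calls and have a median of -0.70, beside 5.53% of all tested genes called lower. That list was chosen with earlier results of these data known, and its called genes other than *Il10* are also Th17 markers. The interferon lists have medians from -0.24 to 0.10, and *Usp18* at 3.82 stands furthest above 0.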

How the data were processed

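Per the study's methods, the authors mapped the RNA-seq reads to mm10 with SOAP2. The submitters' processing notes also name bcl2fastq, HTSeq and Bowtie. The authors deposited raw counts, by gene symbol, of reads assigned uniquely, which sum to the total in each file's header and leave out genes without reads, taken here as 0. The counting annotation, the strand setting and the treatment of reads that fit several transcripts are not given in the sources used here. The 6 ChIP-seq samples were not analysed here.

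The exact binomial test (SciPy 1.17.1) was run on genes that reached 10 reads in sum. The quasi-likelihood test of edgeR could not be fitted, since 1 library per genotype leaves it no residual degrees of freedom. Alternatives were TMM and upper-quartile scaling and exact tests with assumed variation (edgeR 4.0.16), DESeq2 1.42.0 size factors, 5 added to each count, other read filters, loess on transcript length or GC content (statsmodels 0.14.6, span 0.3) and a 1.5-fold limit. Transcript lengths came from GENCODE M21 (found for 99.2% of tested genes) and positions from RefSeq. Of 13704 symbols, 13050 matched directly and 602 by an older symbol. The calculations were tested on simulated data.

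The members and gene lists were chosen with earlier results of these data known. Besides the family, genes were named if they were among the 4 largest called changes or the 3 genes with the most reads of a pathway list, or the 2 with the most reads of a marker list. *Batf*, *Ahr* and *Rtp4* were added after their values were seen, as were marker genes without reads. Results for some genes that this rule names are not reported here.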

Additional observations from a re-analysis of the deposited data

How the results depend on the processing

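The settings were varied 1 at a time. No member was called under any alternative run except a change of at least 1.5-fold, where *Irf4* alone was called lower (1 member). The read filters, the assumed variation and the fold limit leave each log2 fold change as it is. Under the 6 alternatives that can move it, none of 60 values of the tested family genes and *Irf2bpl* changed direction. *Irf4* ranged from -0.85 to -0.67, *Irf2* from -0.39 to -0.30, *Irf8* from 0.20 to 0.24, *Irf2bp2* from -0.55 to -0.28 and *Irf2bp1* from 0.22 to 0.36. Among the genes with few reads, *Irf3* ranged from -0.18 to -0.01 and *Irf9* from -1.02 to -0.72, and with 5 added to each count *Irf1* came to -0.79 and *Irf5* to -0.90, from -1.66 and -1.82. The median of the members ranged from -0.55 (GC correction) to -0.21 (at least 10 reads in each library, which leaves 6 members). Of the pathway genes, 13 lower and 2 higher, the lower count was 7 in edgeR under an assumed variation of 0.2 and 0 at 0.4. The higher count was 1 at variation 0.1 and 0.2, 0 at 0.4, 0 with at least 10 reads in each library and 4 at 1.5-fold. The count over all genes, 602 lower and 280 higher, became 131 and 65 at variation 0.2, 9 and 7 at 0.4, 389 and 184 with at least 10 reads in each library, and 1248 and 764 at 1.5-fold. In the per-length order of 10 members, 4 kept their place in the KO library with the union of exons, and 3 in the WT and 2 in the KO library with the median transcript length. The causes of these changes were not tested. No paired analysis was possible because there was 1 library per genotype, and for the same reason no library could be left out.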

Other observations

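The nearest tested gene on each side of every member that does not overlap it was read as well, 20 genes in all, chosen after the values were seen. *Tnpo3*, which overlaps *Irf5*, was thus left out. Of these, 2 were called lower and 1 higher, beside 5.53% and 2.57% of all tested genes, and their median log2 fold change was -0.15, beside -0.02. Distances here are between chromosome coordinates, and the strand of these neighbours was not read. *Gm16675*, 230 bases before *Irf2* on chromosome 8, fell from 49 to 13 reads (log2 fold change -1.77, exact 95% interval from -2.82 to -0.91). *Smo*, the Hedgehog signal transducer 193628 bases after *Irf5*, fell from 620 to 250 reads (-1.20, interval from -1.42 to -0.99). *Mypop*, 2292 bases before *Irf2bp1* on chromosome 7, rose from 52 to 115 reads (1.24, interval from 0.77 to 1.75), and *Sympk* on the other side had 2246 and 1720 (-0.28, interval from -0.37 to -0.19). Beside *Irf4*, *Dusp22* had 170 and 105 reads (-0.59, interval from -0.96 to -0.23) and *Exoc2* 1741 and 1495 (-0.12, from -0.22 to -0.01). Beside *Irf8*, *Cox4i1* had 1616 and 1687 reads (0.17, interval from 0.07 to 0.27) and *Mthfsd* 46 and 27 (-0.65, interval from -1.41 to 0.05). *Rnf31*, 311 bases before *Irf9*, had 860 and 736 reads, and *Bcl2l12*, 10 bases before *Irf3*, had 167 and 179. Both lay far above *Irf9* and *Irf3* in reads.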
